A study of Mus musculus with 24 samples.

Results

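The genes described here are 10 immediate early transcription factors of CD4 T cells. They are the EGR zinc finger factors Egr1, Egr2 and Egr3, the NR4A nuclear receptors Nr4a1, Nr4a2 and Nr4a3, and Fos, Fosb, Jun and Junb, which encode subunits of the dimeric factor AP-1. They were chosen by gene symbol, each was read by 1 probe set, and they make up 10 of the 22180 genes measured. Naive CD4 T cells of mice were profiled on 24 Affymetrix arrays, with 3 arrays in each of 8 groups of genotype and time. The genotypes were TRIM28 knockout (KO) and littermate wild type (WT). TRIM28 (KAP1) represses transcription where zinc finger proteins with a KRAB domain bring it to chromatin. Cells were taken without stimulation (0 h) or after 4, 24 or 72 h with plate-bound anti-CD3 and soluble anti-CD28, which engage the T cell receptor complex and its costimulatory receptor. The sources used here do not state the deletion strategy, the age of the mice or the sort gate.

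Immediate early genes are transcribed from factors already present in the cell, so that their transcripts appear without new protein synthesis and many decay quickly. In T cells, receptor signals reach them through calcium, calcineurin and NFAT and through the MAP kinase cascade, serum response factor and CREB. AP-1 with NFAT drives cytokine genes such as Il2, whereas EGR2, EGR3 and the NR4A receptors are known for limiting T cell responses and for roles in anergy, exhaustion and regulatory T cells.

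Sequence upstream of the start site is shown for 7 members, chosen for the motif matches it holds, since CREB and serum response factor act on genes of this kind through such sites. RefSeq promoter windows (GRCm38.p6) were held for 8 of the 10 members, and Egr1 and Egr3 were not among them. The 250 bases before each start were searched on both strands for TGACG, the core of a cAMP response element, for GCGGGGGCG, an EGR site, for TGANTCA, an AP-1 site, for AAAGGTCA, an NR4A monomer site, and for the CArG box of serum response factor. In the sequences that follow, each printed on the strand of the gene, capitals mark matches to TGACG (or CGTCA, its complement), the EGR site (or CGCCCCCGC) and the CArG box.
Nr4a2, chr2:57124004-57124253, minus strand, bases 250 to 1 before the start: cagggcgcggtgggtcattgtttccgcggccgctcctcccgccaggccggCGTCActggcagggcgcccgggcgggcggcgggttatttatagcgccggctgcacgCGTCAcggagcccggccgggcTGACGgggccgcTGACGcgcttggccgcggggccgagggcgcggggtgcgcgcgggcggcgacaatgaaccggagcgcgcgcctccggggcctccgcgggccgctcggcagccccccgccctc
Nr4a1, chr15:101266771-101266800, plus strand, bases 75 to 46 before the start: cgtgtgCGTCAgtggCGCCCCCGCccctct
Nr4a3, chr4:48045085-48045114, plus strand, bases 220 to 191 before the start: cccatgtCGTCAcatTGACGtctcgcattc
Egr2, chr10:67537484-67537513, plus strand, bases 82 to 53 before the start at 67537566: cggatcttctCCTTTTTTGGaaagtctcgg
Egr2, chr10:67537789-67537818, plus strand, bases 80 to 51 before the start at 67537869: tcctcagtCCATATATGGgcagcgaCGTCA
Fos, chr12:85473740-85473889, plus strand, bases 150 to 1 before the start: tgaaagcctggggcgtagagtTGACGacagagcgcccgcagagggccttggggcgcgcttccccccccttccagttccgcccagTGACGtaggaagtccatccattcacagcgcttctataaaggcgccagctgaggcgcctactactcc
Fosb, chr7:19310084-19310113, minus strand, bases 68 to 39 before the start: gttgcgggTGACGcaagcGCGGGGGCGggt
Junb, chr8:84978749-84978898, minus strand, bases 150 to 1 before the start: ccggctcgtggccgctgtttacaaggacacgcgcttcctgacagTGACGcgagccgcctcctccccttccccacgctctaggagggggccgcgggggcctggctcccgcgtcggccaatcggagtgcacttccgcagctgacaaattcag

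The windows of Nr4a1, Nr4a2 and Nr4a3 each held 4 matches to TGACG. In Nr4a2 they began 200, 144, 123 and 111 bases before the start. Of all 32851 windows of 250 bases, some of them alternative starts of 1 gene, 17.8% held TGACG at least once, and 45 windows (0.137%) held 4 or more. Fos had 2 matches, at 129 and 66 bases before the start, Fosb and Junb had 1 each, and none was found in the Jun window, which is not shown. Egr2 had 5 listed starts, of which those with a CArG box nearest to them are shown. The box lay 72 bases before each of these, and the window of the start at 67535499 held none. Of all windows, 1.47% held this motif, and the windows of Nr4a1, Nr4a2, Nr4a3, Fos, Fosb, Jun and Junb did not. Sequence more than 250 bases before a start was not searched. The EGR site was found in Nr4a1 and Fosb, against 2.57% of all windows. The AP-1 site, present in 6.75% of all windows, and the NR4A site, in 1.34%, had no match in the members' windows. A match of letters is a description and does not show that a factor binds there.

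Levels below are log2 RMA values of a gene's own probe set, differences are in log2 units, and ± gives the SD of 3 arrays. An adjusted p comes from limma's moderated test, adjusted by Benjamini and Hochberg's method over the 22180 genes, and a gene is called when it is below 0.05. Array medians lay between 3.59 and 3.76, and precision is limited by the number of arrays. Trim28 was lower on every KO array than on every WT array at each time, by 2.62 to 3.58 (adjusted p from 2.53e-16 to 1.17e-13). This fall goes with the genotype labels. The sources used here do not place its probe set relative to the deletion, so how much transcript or protein remained cannot be read from it. Cd3e read 10.6 to 12.2 and Cd4 10.2 to 11.2 over the 24 arrays. Arrays numbered 3 had Xist at or below 4.79 and arrays 1 and 2 at or above 9.61, so arrays numbered 3 differ in sex from the others. Member calls that failed in arrays 1 and 2 alone are given beside the result, and this fit was not made for the other genes named. The labels do not tie arrays to separate animals, so the p-values measure only how these arrays vary, which may be technical in part. For 10 of 10 members, array 1 was the lowest of the KO 4 h arrays. In WT at 0 h, array 1 was the highest for 7 of 10, and in WT at 24 h for 8 of 10. Array 2 was the lowest of the KO 24 h arrays for 8 of 10 and of the WT 72 h arrays for 9 of 10.

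In WT cells, the EGR and NR4A genes were higher at 4 h than at 0 h and the 4 AP-1 genes were lower. No arrays were taken between 0 and 4 h, so a rise and fall within that time would not be seen. All 10 members were called (34.7% of all genes were), with 6 rising (16.8% of all genes) and 4 falling (17.8%). In KO cells, 9 of 10 were called, against 31.1% of all genes, with the same 6 rising. Differences in these bulk samples cannot tell less RNA per cell from fewer cells of a type.

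**Figure D1:**
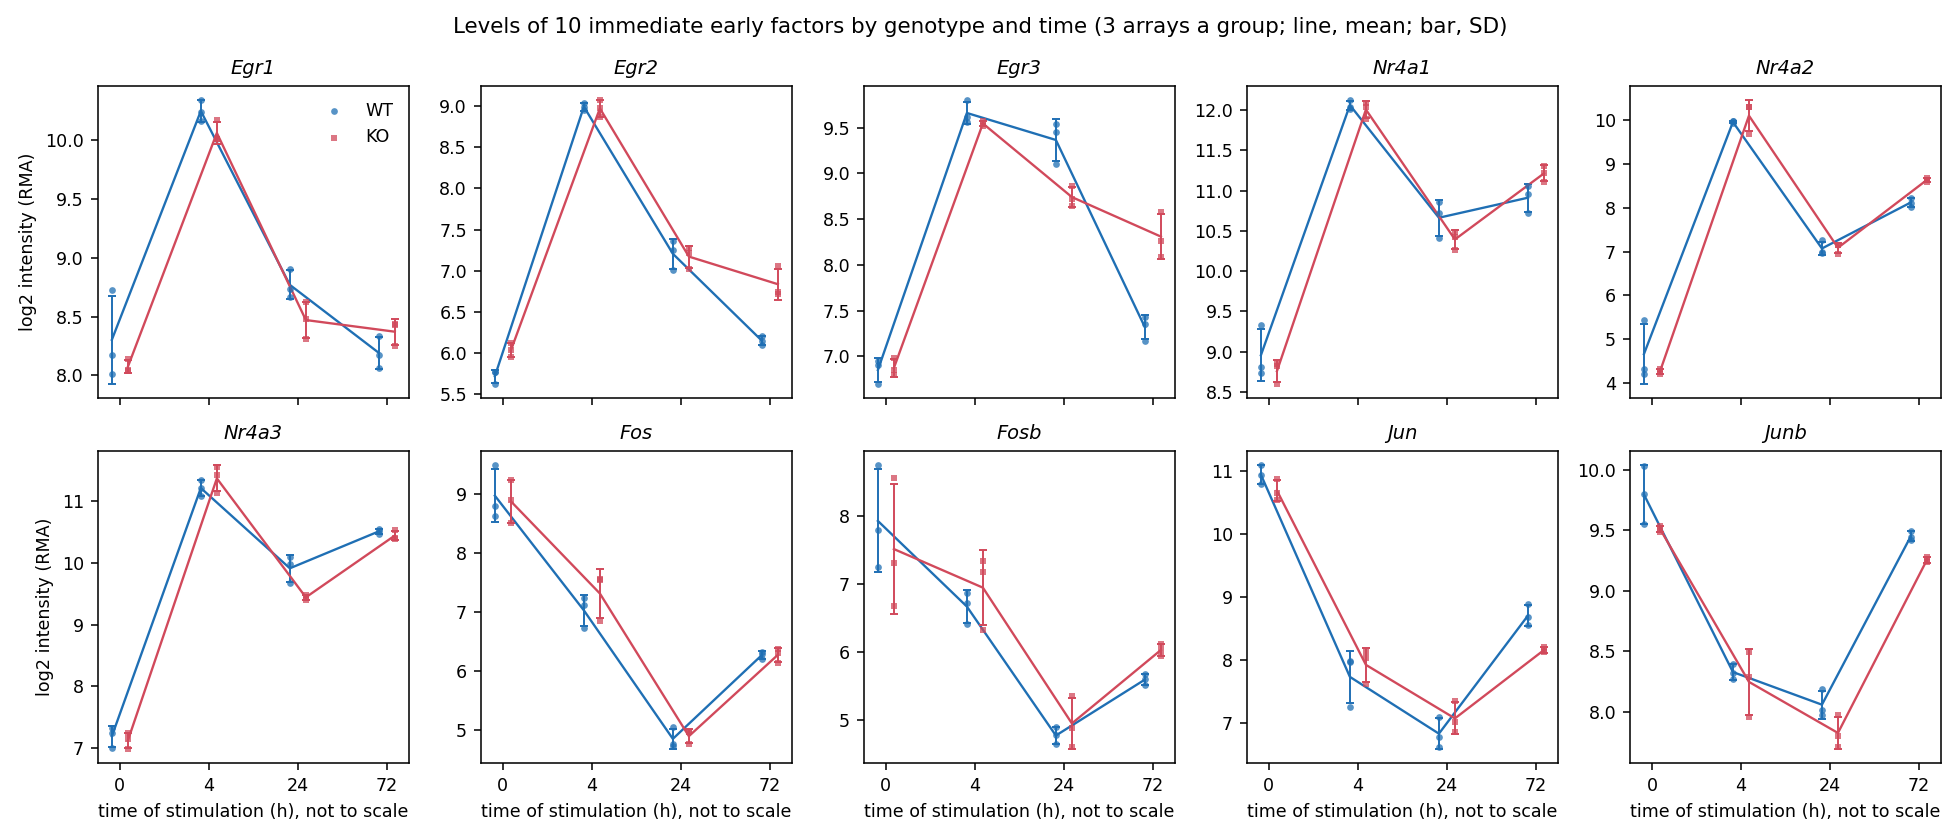
Log2 RMA level of each of the 10 members against time of stimulation (0, 4, 24 and 72 h, spaced evenly and not to scale) in WT (circles) and KO (squares). Points are arrays, lines join group means and bars are the SD of 3 arrays. Of the 4 times sampled, the EGR and NR4A genes are highest at 4 h and the AP-1 genes at 0 h. KO lies above WT at 72 h for Egr2 and Egr3.

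Egr1, a factor induced by growth and antigen receptor signals in many cell types, read 8.73, 8.01 and 8.17 on WT arrays 1, 2 and 3 at 0 h, and 10.16, 10.34 and 10.24 at 4 h. WT 24 h arrays gave 8.91, 8.74 and 8.67, and those of 72 h gave 8.17, 8.06 and 8.34. All WT arrays at 4 h stood above all other WT arrays, and the 0 and 72 h arrays overlapped. The rise to 4 h was 1.95 (SE 0.12, 3.86-fold, adjusted p = 4.43e-13), and the difference between 72 and 0 h was -0.11 (adjusted p = 0.522). KO arrays read 8.05, 8.03 and 8.14 at 0 h, then 10.01, 10.17 and 10.01 at 4 h, 8.62, 8.31 and 8.48 at 24 h, with 8.44, 8.24 and 8.43 for 72 h. Each KO array of 72 h stood above each of 0 h, with a difference of 0.30 (adjusted p = 0.0508).

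Egr2, a factor linked to anergy and to the control of effector cytokines in T cells, read 5.62, 5.76 and 5.76 in WT at 0 h, and 8.95, 8.99 and 9.05 at 4 h. It fell to 7.25, 7.01 and 7.35 at 24 h, with 6.14, 6.09 and 6.21 for 72 h. The 4 WT groups did not overlap, and the rise to 4 h was 3.28 (SE 0.10, 9.74-fold, adjusted p = 8.4e-19). In KO the arrays read 6.03, 6.11 and 5.94, then 8.87, 9.08 and 8.98, then 7.22, 7.02 and 7.27, and at 72 h 7.05, 6.71 and 6.74. The KO arrays of 24 and 72 h overlapped, and the WT arrays of those times did not.

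Egr3, a close relative of Egr2 that acts with it, read 6.91, 6.70 and 6.95 in WT at 0 h, and 9.61, 9.80 and 9.56 at 4 h. The WT arrays at 24 h read 9.54, 9.45 and 9.10, just under those at 4 h, and those at 72 h read 7.43, 7.36 and 7.17. In WT, 89.5% of the log2 rise from 0 to 4 h was left after 24 h, compared with 16.7% after 72 h. KO arrays read 6.79, 6.85 and 6.98 at 0 h, then 9.51, 9.57 and 9.55 at 4 h, 8.86, 8.64 and 8.72 at 24 h, with 8.58, 8.09 and 8.26 for 72 h. In KO, 69.9% of the rise was left after 24 h, compared with 53.7% after 72 h. The larger step down came between 4 and 24 h in KO, and between 24 and 72 h in WT.

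Nr4a1 (NUR77), an orphan receptor widely used as a reporter of T cell receptor signalling, read 9.33, 8.73 and 8.81 in WT at 0 h, and 12.04, 12.12 and 12.02 at 4 h. It then read 10.86, 10.72 and 10.42 at 24 h, with 10.95, 10.72 and 11.06 for 72 h. The WT arrays at 24 and 72 h overlapped (difference 0.25, adjusted p = 0.135). KO arrays read 8.60, 8.85 and 8.83 at 0 h, then 11.89, 12.04 and 12.09 at 4 h, 10.49, 10.26 and 10.43 at 24 h, with 11.31, 11.11 and 11.22 for 72 h. Here the 72 h arrays all stood above the 24 h arrays, by 0.82 (SE 0.12, adjusted p = 8.44e-06).

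Nr4a2 (NURR1), known for dopaminergic neurons and expressed in activated T cells, had the largest rise of the 10. WT arrays read 5.44, 4.21 and 4.32 at 0 h, where array 1 stood apart, and 9.97, 9.98 and 9.93 at 4 h. They fell to 7.25, 6.96 and 7.0 at 24 h, then read 8.23, 8.03 and 8.12 at 72 h. The rise from 0 to 4 h was 5.30 (SE 0.20, 39.5-fold, adjusted p = 2.8e-17) in WT and 5.85 (57.6-fold, adjusted p = 7.45e-18) in KO. KO arrays read 4.26, 4.20 and 4.31 at 0 h, then 9.69, 10.31 and 10.31 at 4 h, 6.95, 7.16 and 7.15 at 24 h, with 8.69, 8.59 and 8.64 for 72 h. In both genotypes the 72 h arrays lay above the 24 h arrays and below the 4 h arrays.

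Nr4a3 (NOR1), the third receptor of the family, read 7.01, 7.25 and 7.33 in WT at 0 h, and 11.08, 11.33 and 11.21 at 4 h. The later WT arrays read 10.08, 9.97 and 9.67 at 24 h, with 10.55, 10.46 and 10.51 for 72 h. The rise to 4 h was 4.01 (SE 0.10, 16.1-fold), and 82.5% of it was left at 72 h. KO arrays read 6.99, 7.15 and 7.24 at 0 h, then 11.13, 11.41 and 11.54 at 4 h, 9.48, 9.40 and 9.44 at 24 h, with 10.53, 10.40 and 10.38 for 72 h. All 3 NR4A genes were thus higher at 72 h than at 24 h in KO (Nr4a3 by 1.0, adjusted p = 2.71e-08), and in WT this was called for Nr4a2 (1.05, adjusted p = 0.000122) and Nr4a3 (0.60, adjusted p = 3.81e-05).

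Fos, the subunit that gives AP-1 its strongest DNA binding when paired with JUN, was highest at 0 h among the 4 times sampled. WT arrays read 9.48, 8.79 and 8.63 at 0 h, then 7.23, 7.11 and 6.74 at 4 h, 5.05, 4.74 and 4.76 at 24 h, with 6.29, 6.20 and 6.32 for 72 h. KO arrays read 9.22, 8.89 and 8.50, then 6.84, 7.54 and 7.55, then 4.96, 4.76 and 4.96, and at 72 h 6.14, 6.30 and 6.38. Within each genotype the 4 times did not overlap, and their order was 0, 4, 72 and 24 h. The fall from 0 to 4 h was called in both genotypes, at -1.94 in WT (SE 0.20, adjusted p = 4.94e-09) and -1.56 in KO (adjusted p = 2.78e-07).

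Fosb, a FOS paralog, had the largest SE of the 10. WT arrays read 8.74, 7.79 and 7.25 at 0 h, then 6.87, 6.73 and 6.41 at 4 h, 4.64, 4.89 and 4.78 at 24 h, with 5.67, 5.51 and 5.60 for 72 h. KO arrays read 8.56, 7.31 and 6.67 at 0 h, then 6.32, 7.34 and 7.18 at 4 h, 5.36, 4.61 and 4.89 at 24 h, with 6.03, 5.95 and 6.12 for 72 h. In both genotypes array 1 was the highest of 0 h. The difference between 4 and 0 h was -1.26 in WT (SE 0.34, adjusted p = 0.0039) and -0.57 in KO (adjusted p = 0.245). Without WT array 1 at 0 h the WT difference was -0.85 (adjusted p = 0.0569), and leaving out 1 array moved the KO difference from -0.99 without array 3 of 0 h (adjusted p = 0.0255) to -0.04 without array 1 of 0 h (adjusted p = 0.952). In arrays 1 and 2 alone the KO difference was -1.11 (adjusted p = 0.0352).

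Jun, the main partner of FOS proteins, read 11.09, 10.94 and 10.79 in WT at 0 h, and 7.98, 7.96 and 7.25 at 4 h. At 24 h the WT arrays read 7.09, 6.78 and 6.61, and at 72 h 8.88, 8.55 and 8.67. KO arrays read 10.87, 10.53 and 10.65 at 0 h, then 7.61, 8.12 and 8.02 at 4 h, 7.35, 7.0 and 6.85 at 24 h, with 8.13, 8.20 and 8.13 for 72 h. Both genotypes were lowest at 24 h, and within a genotype the 4 and 24 h arrays did not overlap. The fall to 4 h was 9.26-fold in WT (-3.21, SE 0.16, adjusted p = 1.02e-14) and 6.81-fold in KO (-2.77, adjusted p = 2.75e-13).

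Junb, a JUN paralog that pairs with BATF in T helper cells, read 10.03, 9.55 and 9.80 in WT at 0 h, and 8.39, 8.32 and 8.26 at 4 h. The WT arrays read 8.19, 7.97 and 8.01 at 24 h, with 9.49, 9.42 and 9.44 for 72 h. KO arrays read 9.49, 9.51 and 9.53 at 0 h, then 7.95, 8.50 and 8.29 at 4 h, 7.80, 7.71 and 7.97 at 24 h, with 9.24, 9.28 and 9.25 for 72 h. The 72 h level differed from the 0 h level by -0.34 (adjusted p = 0.00996) in WT and -0.26 (adjusted p = 0.0576) in KO. Without WT array 1 at 0 h the WT difference was -0.22 (adjusted p = 0.113), and in arrays 1 and 2 alone it was -0.34 (adjusted p = 0.0989). A list of 8 measured heat shock genes had a mean level of 6.28 to 6.51 over the 6 arrays at 0 h, where the AP-1 genes were highest, and 7.04 to 7.77 over those at 4 h. Its part in the AP-1 levels was not tested.

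Against 0 h, 10 of 10 members were called at 24 h in WT (39.7% of all genes) and in KO (34.0%), with the EGR and NR4A genes higher and the AP-1 genes lower. At 72 h, 9 of 10 were called in WT (40.5%), all but Egr1, and 8 of 10 in KO (39.7%), all but Egr1 and Junb. At 72 h Nr4a2 was above its 0 h level by 3.47 in WT and 4.38 in KO, and Fos was at -2.70 and -2.60. Without KO array 1 of 24 h, Egr1 in KO was 0.32 above 0 h at 24 h (adjusted p = 0.0682), against 0.40 (adjusted p = 0.0102) with all arrays, and arrays 1 and 2 alone gave 0.43 (adjusted p = 0.0636). Without KO array 2 of 72 h, Egr1 in KO was called at 72 h (0.36, adjusted p = 0.0368). The Fosb difference in KO between 72 and 0 h was -1.48 with all arrays and -0.96 without array 1 of 0 h.

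Between 4 and 24 h the members fell in both genotypes. In WT, 9 of 10 were lower at 24 h (11.5% of all genes were), and Junb at -0.27 was not called (adjusted p = 0.0535). In KO, 10 of 10 were lower (13.0% of all genes). Nr4a2 fell by 2.89 in WT and fell by 3.02 in KO. Fos fell by 2.17 and Egr2 fell by 1.79 in WT. Egr3 had a small WT step of -0.29 (adjusted p = 0.0453), and this call ended without array 1 (-0.32, adjusted p = 0.0648) or 2 (-0.22, 0.19) of WT 4 h or array 3 of WT 24 h (-0.16, 0.304). In arrays 1 and 2 alone it was -0.21 (adjusted p = 0.248). The call also ended with only the groups compared (adjusted p = 0.0535), no mean-variance trend (0.0674) or array weights (0.0506). Without WT array 1 at 24 h, Junb passed the threshold (-0.34, adjusted p = 0.0317). It also passed without dim genes (0.0335), with quantile normalization run again (0.00653), only the groups compared (0.0368) or array weights (0.0456).

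Between 24 and 72 h the families parted. In WT, 8 of 10 were called (27.4% of all genes), with Egr1, Egr2 and Egr3 falling (15.8%) and Nr4a2, Nr4a3, Fos, Jun and Junb rising (11.6%). In KO, 9 of 10 were called (17.7% of all genes), with Egr2 and Egr3 falling (8.04%) and the 3 NR4A and 4 AP-1 genes rising (9.63%). Egr3 fell by 2.04 in WT (SE 0.11, 4.13-fold, adjusted p = 1.46e-13) and fell by 0.43 in KO (SE 0.11, 1.35-fold, adjusted p = 0.00636). Egr2 fell by 1.06 in WT (SE 0.10, adjusted p = 4.26e-09) and fell by 0.34 in KO (adjusted p = 0.0173). Jun rose by 1.87 in WT (SE 0.16, adjusted p = 1.11e-09) and by 1.09 in KO (adjusted p = 1.45e-05). Fos rose by 1.42 in WT and 1.38 in KO, and Junb by 1.39 and 1.43. The KO call of Egr3 ended without KO array 2 at 72 h (-0.32, adjusted p = 0.0756). The KO call of Egr2 ended without KO array 1 (adjusted p = 0.0668) or 3 (0.0961) of 24 h or KO array 2 (0.113) or 3 (0.097) of 72 h, at -0.31 to -0.28, and was -0.24 in arrays 1 and 2 alone (adjusted p = 0.347). The KO call of Fosb (1.08, adjusted p = 0.0248) ended without KO array 2 or 3 of 24 h or any 1 KO array of 72 h, with adjusted p from 0.0531 to 0.125, and in arrays 1 and 2 alone (1.0, adjusted p = 0.0991). It also ended with robust eBayes (adjusted p = 0.0802).

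**Figure D2:**
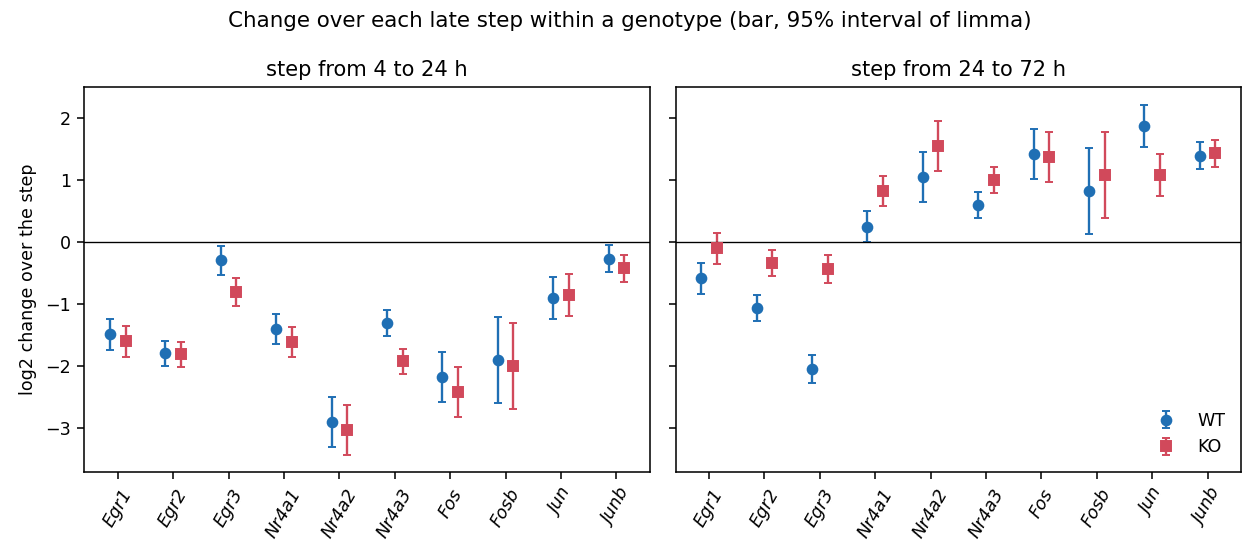
Log2 change of each of the 10 members from 4 to 24 h (left) and from 24 to 72 h (right) in WT (circles) and KO (squares). Points are limma estimates from 3 arrays a group and bars their 95% confidence intervals. All points lie below 0 on the left. On the right the Egr3 change is -2.04 in WT and -0.43 in KO, and the Jun change 1.87 and 1.09.

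Before stimulation and at 4 h no member was called between KO and WT. At 0 h 0 of 10 passed limma's adjusted threshold (2.34% of all genes did), and 2 had an unadjusted p below 0.05. These were Egr2, higher in KO by 0.32 (SE 0.10, adjusted p = 0.111), and Junb, at -0.28 (SE 0.11, adjusted p = 0.216), which ran from -0.41 without WT array 2 to -0.17 without WT array 1. In both, KO and WT arrays did not overlap, which held for 2 of 10 members and 16.9% of all genes. At 4 h 0 of 10 were called by limma (4.13% of all genes were), 0 had an unadjusted p below 0.05, and the KO and WT arrays of all 10 overlapped, whereas 16.2% of all genes did not overlap. The differences at 4 h ran from -0.19 for Egr1 (95% confidence interval -0.44 to 0.06) to 0.29 for Fos (-0.12 to 0.69). The interval was narrowest for Egr2 (-0.23 to 0.18) and widest for Fosb (-0.42 to 0.97). With 1 array left out, Fos lay between 0.14 (WT array 3 omitted) and 0.52 (KO array 1 omitted). Fosb lay between 0.08 (KO array 2 omitted) and 0.59 (KO array 1 omitted). At 4 h, the highest of the 4 times for the EGR and NR4A genes, differences within these 95% confidence intervals remain possible. The mean level of 13 measured B cell genes was 4.60 to 5.39 over KO arrays of 0 h and 3.97 to 4.89 over WT arrays, with 2 of 13 called higher. For 4 h it was 4.18 to 4.73 in KO and 3.70 to 4.39 in WT, with 0 of 13 called by limma and 4 at an unadjusted p below 0.05. The mean of 15 myeloid genes was 3.81 to 4.37 in KO and 3.50 to 3.70 in WT before stimulation, with 4 called higher, and 3.55 to 4.08 and 3.24 to 3.66 after 4 h, with 3 called higher. Foxp3, the regulatory T cell factor, was at 0.76 before stimulation (SE 0.24, adjusted p = 0.113) and was higher in KO after 4 h by 0.93 (adjusted p = 0.024). Their part in the members' levels was not tested.

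At 24 h Egr3 and Nr4a3 were lower in KO. These were 2 of 10 members called, both lower, against 11.3% of all genes called and 7.38% called lower. Egr3 was 9.36 ± 0.23 in WT and 8.74 ± 0.11 in KO, a difference of -0.62 (SE 0.11, 95% confidence interval -0.85 to -0.39, 1.54-fold lower, adjusted p = 0.00049). Nr4a3 was 9.91 ± 0.22 in WT and 9.44 ± 0.04 in KO, a difference of -0.47 (SE 0.10, -0.68 to -0.26, 1.38-fold lower, adjusted p = 0.0027). For both, every KO array read below every WT array, and in arrays 1 and 2 alone the differences were -0.74 (adjusted p = 0.00213) and -0.59 (adjusted p = 0.00257). Arrays did not overlap for 4 of 10 members (27.2% of all genes), with Egr1 at -0.30 (adjusted p = 0.118) and Junb at -0.23 (adjusted p = 0.178) also lower on every KO array. Nr4a1 was at -0.27 (adjusted p = 0.163), and on leaving out 1 array ran from -0.39 without WT array 3 (adjusted p = 0.0415) to -0.17 without WT array 1 (adjusted p = 0.541). Relatives of the called genes were not called, with Egr2 at -0.03 (-0.24 to 0.17) and Nr4a2 at 0.02 (-0.39 to 0.42). The median of the 10 members was -0.13 and that of all genes -0.05.

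At 72 h Egr2 and Egr3 were higher in KO and Jun was lower. These 3 of 10 compare with 6.33% of all genes called, 2.56% higher and 3.78% lower. Egr3 was 7.32 ± 0.13 in WT and 8.31 ± 0.25 in KO, higher by 0.99 (SE 0.11, 0.76 to 1.22, 1.99-fold, adjusted p = 6.36e-07), the opposite direction from 24 h. Egr2 was 6.15 ± 0.06 in WT and 6.83 ± 0.19 in KO, higher by 0.69 (SE 0.10, 0.48 to 0.89, 1.61-fold, adjusted p = 2.74e-05). In both genes every KO array stood above every WT array, and arrays 1 and 2 alone gave 0.94 (adjusted p = 0.000221) and 0.77 (adjusted p = 0.0016). Egr1, the third EGR gene, was at 0.18 (-0.07 to 0.43, adjusted p = 0.583).

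Jun at 72 h was 8.70 ± 0.17 in WT and 8.15 ± 0.04 in KO, a difference of -0.55 (SE 0.16, -0.88 to -0.21, 1.46-fold lower, adjusted p = 0.0437), with all KO arrays below all WT arrays. This call lay close to the threshold. It held without WT array 2 (adjusted p = 0.0496) and ended without WT array 1 (-0.46, adjusted p = 0.209), WT array 3 (0.106), KO array 1 (0.125), KO array 2 (0.0851) or KO array 3 (0.13), in arrays 1 and 2 alone (0.0976), and with robust eBayes (0.0809) or no mean-variance trend (0.0768). Arrays of 7 of 10 members did not overlap at 72 h (24.6% of all genes). Beside the 3 called these were Nr4a2, at 0.51 (adjusted p = 0.147), Fosb, at 0.44 (0.674), Nr4a1, at 0.30 (0.172), and Junb, at -0.20 (0.42). A fit to the 6 arrays of 72 h alone called those 7 members (8.43% of all genes), and the spread used for each gene is then that of these 6 arrays. Nr4a3, lower at 24 h, was at -0.07 (-0.27 to 0.14), and Fos was at 0.00 (-0.40 to 0.41).

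**Figure D3:**
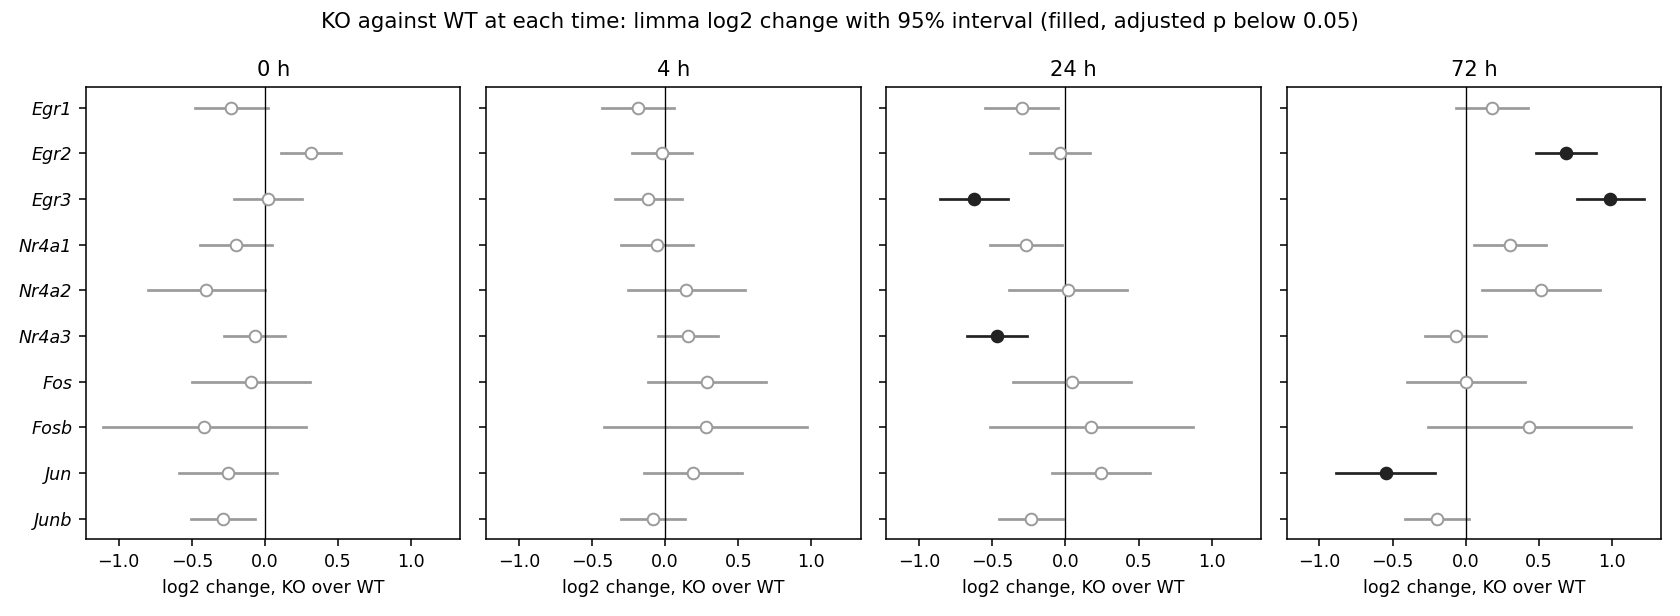
Log2 difference between KO and WT for each of the 10 members at 0, 4, 24 and 72 h. Points are limma estimates from 3 KO and 3 WT arrays and bars their 95% confidence intervals, and filled points have an adjusted p below 0.05. No point is filled at 0 or 4 h. Egr3 and Nr4a3 are filled below 0 at 24 h, and at 72 h Egr2 and Egr3 above 0 and Jun below.

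Markers of some other cells also differed with genotype at these late times, while the myeloid means of KO and WT overlapped. Of all genes, 11.3% were called at 24 h (7.38% lower) and 6.33% at 72 h (2.56% higher, 3.78% lower). The mean of the 13 B cell genes was 4.16 to 4.86 over KO arrays of 24 h and 3.68 to 4.03 over WT arrays, with 3 of 13 called higher. For 72 h it was 4.02 to 4.67 in KO and 3.76 to 3.88 in WT, with 1 of 13 called higher. Pax5, a defining B cell factor, read 5.46, 4.54 and 4.94 on the KO arrays of 24 h and 4.28, 4.13 and 4.28 on the WT arrays, with no overlap, and 4.51, 3.99 and 4.35 in KO and 3.88, 4.03 and 4.02 in WT for 72 h, where they overlapped. The B cell mean on KO arrays 1, 2 and 3 of 72 h was 4.67, 4.02 and 4.41, the same order of arrays as for Egr3 (8.58, 8.09 and 8.26) and Egr2 (7.05, 6.71 and 6.74). KO array 2, the lowest of the KO arrays on all of these, read above every WT array for Egr3, for Egr2 and for the B cell mean. Foxp3 on these KO arrays read 8.30, 7.50 and 7.99, the same order again. At 24 h, where Egr3 was lower in KO, the B cell mean was 4.86, 4.16 and 4.43 on KO arrays 1, 2 and 3. Egr3 had that order there too (8.86, 8.64 and 8.72), and Egr2 did not (7.22, 7.02 and 7.27). The mean of 5 natural killer cell genes was 3.87 to 3.96 in KO and 4.73 to 5.20 in WT at 72 h, with 3 of 5 called lower, while Ncr1, a defining gene, read 3.35 to 3.94 over all arrays. Of the CD8 genes, Cd8a read 2.62 to 3.66 and Cd8b1 5.64 to 6.62 over all arrays, and 1 of these 2 was called lower in KO at each late time. The myeloid mean was 3.31 to 3.51 in KO and 3.31 to 3.37 in WT for 24 h, and 3.20 to 3.34 and 3.24 to 3.39 for 72 h, and its defining gene Csf1r read 2.66 to 3.69 over all arrays. Foxp3 was higher in KO by 1.63 after 24 h (SE 0.24, adjusted p = 5.53e-05) and by 2.49 after 72 h (adjusted p = 5.3e-08). The part of these cells in the EGR, NR4A and Jun differences was not tested.

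The steps themselves were compared between genotypes through the interaction term. From 0 to 4 h, 0 of 10 members had a called difference in limma (0.726% of all genes did), and 1 had an unadjusted p below 0.05. From 4 to 24 h Nr4a3 fell further in KO, with a difference of -0.62 (SE 0.14, adjusted p = 0.0177). It was the 1 member called, against 2.23% of all genes. The Nr4a3 step was -1.30 in WT and -1.92 in KO. This call ended without array 1 of WT 4 h (-0.56, adjusted p = 0.0627), array 3 of KO 4 h (-0.53, 0.0583) or array 1 of WT 24 h (-0.54, 0.067), and in a fit of the 4 groups alone (0.0567). Arrays 1 and 2 alone gave -0.66 (adjusted p = 0.0495). Without WT array 3 at 24 h, Egr3 was called as well.

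From 24 to 72 h, 4 of 10 members had a called genotype difference in the step, against 8.46% of all genes. For each gene it equals the KO and WT difference at 72 h less that at 24 h, on the same arrays. The difference was 1.61 for Egr3 (SE 0.16, adjusted p = 1.53e-07) and 0.72 for Egr2 (SE 0.14, adjusted p = 0.00141), both falling less in KO. It was 0.57 for Nr4a1 (SE 0.17, adjusted p = 0.0326) and -0.79 for Jun (SE 0.23, adjusted p = 0.0319). Egr2 and Egr3 remained called in all 22 other settings run. For Nr4a1 the call ended without array 1 or 2 of WT 24 h, array 2 of KO 24 h, array 2 of WT 72 h, or array 1 or 3 of KO 72 h (0.47 to 0.57, adjusted p from 0.0622 to 0.106), and with quantile normalization run again (0.52, adjusted p = 0.0546), robust eBayes (0.0611) or no trend (0.0734), and arrays 1 and 2 alone gave 0.78 (adjusted p = 0.0368). For Jun it ended without array 2 or 3 of WT 24 h, array 1 of KO 24 h, array 1 or 3 of WT 72 h, or array 1 or 3 of KO 72 h (-0.80 to -0.65, adjusted p from 0.0581 to 0.118), and in arrays 1 and 2 alone (adjusted p = 0.0693), with robust eBayes (0.0574) or no trend (0.0565). Without array 2 of WT 24 h, or array 1 or 3 of KO 72 h, 2 members were called, Egr2 and Egr3.

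Measured from 0 h, Egr3 was the 1 member with a called genotype difference both at 24 h (5.87% of all genes) and at 72 h (3.91% of all genes). The difference was -0.65 at 24 h (SE 0.16, adjusted p = 0.0147) and 0.97 at 72 h (SE 0.16, adjusted p = 0.000282). The first ended without WT array 1 at 24 h (-0.56, adjusted p = 0.0521) and with quantile normalization run again (-0.50, adjusted p = 0.0511). Nr4a3 joined it without WT array 3 at 24 h. At 72 h Nr4a2 joined Egr3 without WT array 3 at 0 h, and Nr4a1 and Nr4a2 without WT array 2 at 0 h. These comparisons share the 0 h arrays.

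Ordered by group mean, WT and KO at 4 h headed all EGR and NR4A genes without separation from each other. The 8 groups of Egr3 then ran from WT at 24 h, which overlapped KO at 4 h, through KO at 24 h, KO at 72 h and WT at 72 h, each apart from the next, to the overlapping 0 h groups. For Egr2 the order after 4 h was WT at 24 h, KO at 24 h and KO at 72 h, which overlapped, then WT at 72 h and KO at 0 h, which overlapped, and last WT at 0 h. For Egr1 only the 4 h groups and WT at 24 h stood apart, and neighbours overlapped throughout the other 5 groups. For Nr4a1 and Nr4a2 the order after 4 h was KO at 72 h and then WT at 72 h, with the 24 h groups overlapping each other below. For Nr4a3 the 72 h groups overlapped, followed by WT and then KO at 24 h, each apart. The 0 h groups were lowest for all 3 NR4A genes, and those of each gene overlapped.

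For the AP-1 genes the 0 h groups came first, overlapping between genotypes for Fos, Fosb and Jun but not for Junb. For Fos each time formed a block in which WT and KO overlapped. For Fosb, KO at 72 h stood above WT at 72 h, and the 24 h groups were lowest and overlapped. For Jun the order after 0 h was WT at 72 h, KO at 72 h, and then the 4 and 24 h groups, each overlapping its neighbour. For Junb it was KO at 0 h overlapping WT at 72 h, then KO at 72 h, the 4 h groups with WT at 24 h, and KO at 24 h lowest.

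Across the 8 group means, which share all arrays with the results above, Pearson's r was 0.98 to 0.995 for the pairs of NR4A genes. It was 0.81 to 0.96 for pairs of EGR genes, and 0.61 (Fosb with Junb) to 0.98 (Fos with Fosb) for pairs of AP-1 genes. Pairs of an EGR with an NR4A gene gave 0.67 to 0.84, within the range of the AP-1 pairs, and Jun with Egr3 gave -0.86. The 3 genes most like each member were sought among 5138 genes whose group means spanned at least 1 log2 unit. Nr4a1 and Nr4a2 had each other as nearest gene (0.995), and Fos was among the 3 nearest of Fosb (0.982). For Egr3 they were Tacc2, Aatf and Ttc27 (each 0.993), for Egr2 Cltc, Zap70 and Relb (0.985 to 0.989), and for Egr1 Sh2b3, Pmepa1 and Sptlc1 (0.988 to 0.991). For Nr4a3 they were Slc1a5, Gfod1 and Esf1 (0.988 to 0.995). Fos was closest to Mdm4, Nfkbiz and Rhob (0.984 to 0.989), Jun to Cited2, Letm2 and Dnm2 (0.978 to 0.984), and Junb to Klf6, Irf7 and Rtp4 (0.953 to 0.974). These are descriptions over 8 points.

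Related genes were followed in 8 lists, with the members left out. Beside the counts called in each list stand the shares of all genes, 2.34% at 0 h, 4.13% at 4 h, 11.3% at 24 h (7.38% lower) and 6.33% at 72 h (2.56% higher, 3.78% lower). Other EGR, AP-1 and bZIP factors (9 measured) had 2 called at 4 h, 1 at 24 h, a share close to that of all genes, and 3 at 72 h. Batf, a partner of JUN proteins in T cells, was higher in KO by 0.44 at 4 h (adjusted p = 0.0187). Jund, an AP-1 subunit, was lower in KO by 0.28 at 4 h (adjusted p = 0.00541) and higher by 0.25 at 72 h (adjusted p = 0.00744). Atf3, a stress-induced bZIP factor, was 8.84 ± 0.05 in WT and 8.02 ± 0.19 in KO at 72 h, lower by 0.82 (adjusted p = 0.00439) and Batf3, of the BATF family, was lower by 0.60 (adjusted p = 0.00955). The list median was -0.15 at 24 h and -0.06 at 72 h, beside -0.05 and 0.01 for all genes.

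Of 8 EGR corepressors and serum response factors, 1 was higher and 2 lower in KO at 24 h. Nab2, which binds EGR proteins and represses their activity, was 8.92 ± 0.13 in WT and 8.44 ± 0.03 in KO, lower by 0.48 (SE 0.12, adjusted p = 0.011). Srf, the serum response factor, was lower by 0.28 (adjusted p = 0.0475), and its coactivator Mrtfa was higher by 0.44 (adjusted p = 0.00667). At 4 h Mrtfa and Mrtfb, both coactivators of serum response factor, were higher by 0.42 and 0.33. The list median at 24 h was -0.06, and that of all genes -0.05.

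Among 11 feedback genes of the MAP kinase and calcineurin pathways, 2 were higher and 1 lower at 24 h, and 3 were higher at 72 h. Dusp6, a phosphatase that inactivates ERK, was lower in KO at 24 h (9.79 ± 0.09 in WT, 9.19 ± 0.08 in KO, -0.60, SE 0.09, adjusted p = 7.04e-05) and higher at 72 h (8.48 ± 0.08 against 8.90 ± 0.10, 0.42, adjusted p = 0.00346). At 0 h Dusp6 was lower by 0.38 (adjusted p = 0.0204) and Dusp5, another ERK phosphatase, by 0.52, while Egr3 was at 0.02 (adjusted p = 0.97). At 4 h Dusp10, a phosphatase of p38 and JNK, and Cabin1, a calcineurin inhibitor, were higher by 0.68 and 0.52. Dusp1, a phosphatase of p38, JNK and ERK, was higher in KO by 0.48 at 24 h (adjusted p = 0.0135) and 0.86 at 72 h (adjusted p = 3.49e-05). Spry1, a Ras pathway inhibitor, was higher by 0.94 at 0 h (adjusted p = 0.000259) and 0.67 at 72 h (adjusted p = 0.00425). The list median was -0.21 at 24 h and 0.16 at 72 h.

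**Figure D4:**
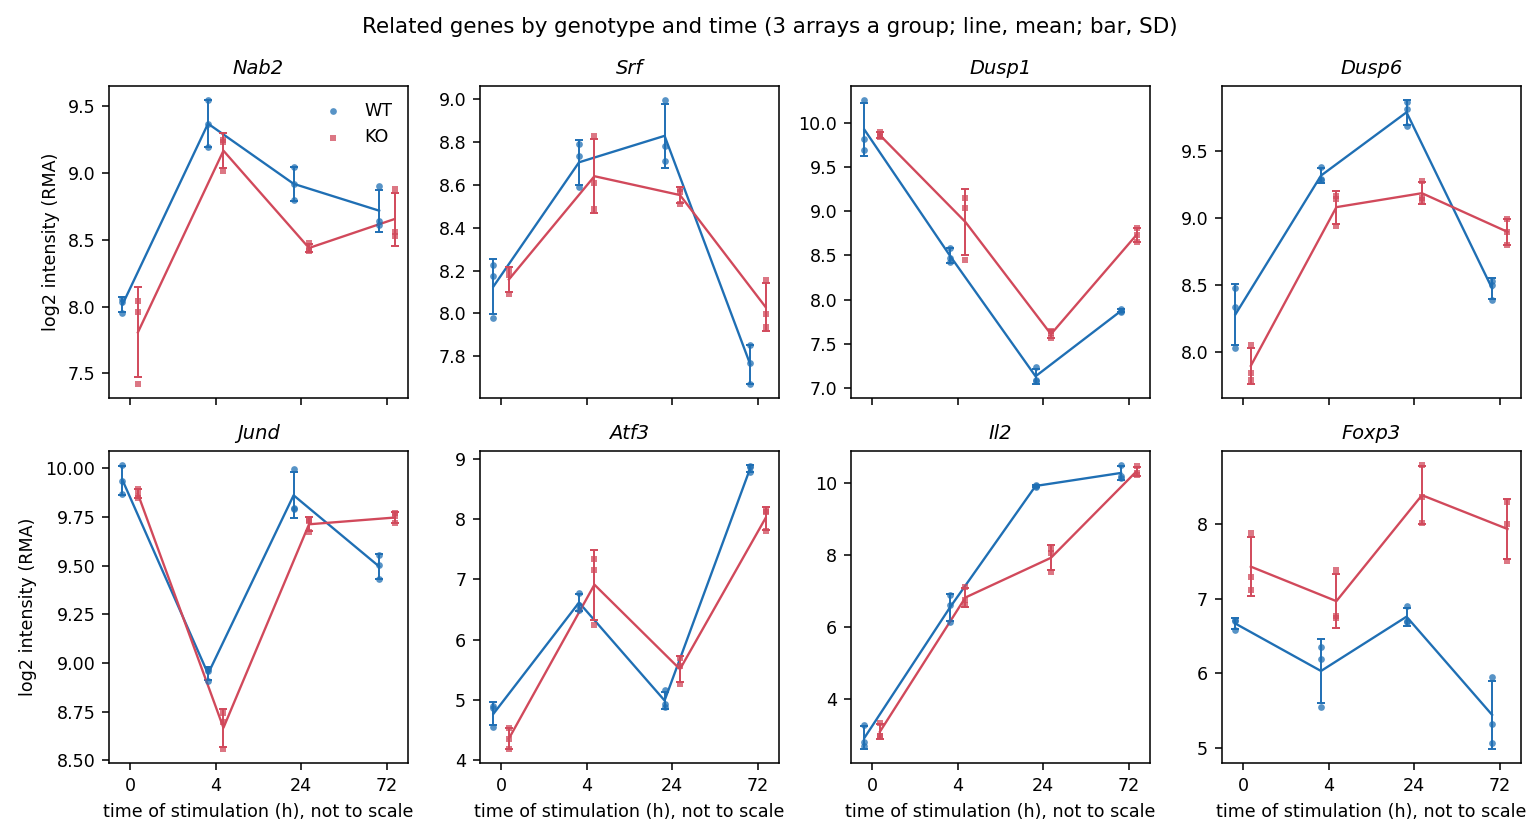
Log2 RMA levels of 8 related genes, chosen after their values were seen, against time of stimulation (0, 4, 24 and 72 h, evenly spaced and not to scale) in WT (circles) and KO (squares). Points are arrays, lines join means and bars are the SD of 3 arrays. Dusp6 and Il2 are lower in KO at 24 h, Dusp6 is higher in KO at 72 h, and Atf3 is lower in KO at 72 h.

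The 22 other immediate early genes had 8 called at 24 h (11.3% of all genes), 3 higher and 5 lower, and 7 at 72 h (6.33% of all genes), 2 higher and 5 lower. Rgs2, a regulator of G protein signalling, was lower in KO by 1.19 at 24 h (adjusted p = 6.16e-06) after being higher by 0.57 at 4 h (adjusted p = 0.0274). Rgs1, of the same family, was higher by 1.0 at 4 h (SE 0.12, adjusted p = 1.9e-06) and lower by 0.48 at 24 h. At 72 h Ccn1, a matricellular protein, was lower by 1.99 (adjusted p = 8.47e-10) and Klf4, a quiescence factor of T cells, by 1.09 (adjusted p = 0.00051), while Zfp36l1, which speeds decay of AU-rich transcripts, was higher by 0.75 (adjusted p = 7.14e-08). At 0 h Myc and Ier2 were lower, by 0.54 and 0.40. The list median was -0.18 at 24 h and -0.10 at 72 h.

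Of the 5 NFAT genes, Nfatc1 was lower in KO at 4 h by 0.31 (adjusted p = 0.0371) and at 24 h by 0.36 (adjusted p = 0.00559), and Nfat5 at 24 h by 0.37. Genes linked to AP-1 and NFAT (9 cytokine and ligand genes) had 4 called at 24 h, all lower in KO, with a list median of -0.36. Il2, a growth factor of T cells, was 9.91 ± 0.03 in WT and 7.91 ± 0.34 in KO at 24 h (SE 0.18, adjusted p = 1.99e-08), and 10.27 ± 0.19 and 10.31 ± 0.13 at 72 h. Cd40lg, the T cell ligand for B cell help, was lower by 0.72 at 24 h (adjusted p = 0.000136). At 72 h 3 of 9 were lower, among them Ifng by 0.93 (adjusted p = 2.26e-05), and the median was -0.08.

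Of 16 genes linked to EGR2 and EGR3 in T cells, 7 were called at 24 h (11.3% of all genes), when Egr3 was lower in KO, with 6 higher. Cdkn1b, a cell cycle inhibitor, was higher by 1.07 (adjusted p = 2.09e-06) and Socs3, a cytokine signalling inhibitor, by 0.92 (adjusted p = 0.00183), while Crtam, an adhesion receptor, was lower by 1.21 (adjusted p = 3.07e-05). At 72 h, when Egr2 and Egr3 were higher in KO, 4 were called. Crtam was lower by 1.05, the inhibitory receptor Lag3 by 0.73 and the cell cycle inhibitor Cdkn1a by 0.64, and Dgka, an anergy-linked kinase, was higher by 0.26 (adjusted p = 0.00206). The list median was 0.17 at 24 h and -0.09 at 72 h. Egr2 itself was not called at 24 h, and the part of Egr2 and Egr3 in these differences was not tested.

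Of 10 genes linked to NR4A receptors, 4 were called at 24 h and 6 at 72 h. Pdcd1, the gene of PD-1, was lower in KO by 0.58 at 24 h (adjusted p = 0.00525) and higher by 0.72 at 72 h (adjusted p = 0.000785). Ctla4, an inhibitory receptor, was higher by 0.83 at 4 h (adjusted p = 2.08e-06) and by 0.55 at 72 h (adjusted p = 0.000349). The list median was 0.06 at 24 h and 0.08 at 72 h.

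Among the heat shock genes, Hspa1b and Hspa1a were lower in KO at 4 h, by 1.43 (adjusted p = 0.00209) and 1.39 (adjusted p = 0.00315), near-identical copies whose probes may not tell them apart. KO array 1 at 4 h, on which all 10 members were lowest of the 3, also had the lowest mean of this list (7.04, against 7.38 and 7.42). Its part in the members' levels was not tested.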

How the data were processed

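The authors deposited log2 values of 41345 probe sets, which per the submitters' processing notes come from RMA, oligo and R 3.1.0. RMA brings arrays close to the same distribution, so a change shared by all genes can be hidden, and low signals are compressed. The deposited array medians still differed, from 3.59 to 3.76. For RMA and oligo no version is named. Of the probe sets, 23521 had 1 gene symbol in the platform annotation, 1814 several and 16010 none listed. With 1 probe set a gene (the highest mean), 22180 genes remained, and 23328 probe sets were matched to RefSeq by Entrez ID.

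Here limma 3.58.1 in R 4.3.3 fitted 8 group means on the 24 arrays (eBayes with trend, 24.8 total degrees of freedom), two-sided, and tested on simulated data. The spread is shared across groups. Interactions compared the steps of KO and WT. Members and lists were chosen with earlier results of these data known. All members were named in every group, and from the lists called genes only, at most 3 per direction and time, the largest changes first. No batch or date was given. Alternatives were the mean of probe sets, leaving out genes under 3.24 (the 40th percentile), quantile normalization again, only the groups compared, a fixed or random replicate block, robust eBayes, no trend, array weights, arrays 1 and 2 alone, each array left out, and, at 0 and 4 h, KO array 2 as the sole KO array.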

Additional observations from a re-analysis of the deposited data

Results flagged for a closer look

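Each of these members differed between KO and WT in a step over time, by limma's interaction term with an adjusted p below 0.05. These terms use the same arrays as the KO and WT differences at single times. Measured from 0 h, the Egr3 change differed by -0.65 at 24 h and by 0.97 at 72 h. From 4 to 24 h, Nr4a3 differed by -0.62. From 24 to 72 h the differences were 0.72 for Egr2, 1.61 for Egr3, 0.57 for Nr4a1 and -0.79 for Jun. The calls of Nr4a3, Nr4a1 and Jun ended without 1 array each of several arrays. That of Egr3 at 24 h ended without WT array 1 of 24 h and with quantile normalization run again.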

How the results depend on the processing

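Egr3 and Nr4a3 at 24 h and Egr2 and Egr3 at 72 h kept their KO and WT calls in all settings run. Counts of members called between KO and WT at 72 h rose from 3 to 7 with only the groups compared. Called step differences from 0 to 24 h went from 1 to 0 with quantile normalization and 2 with array weights (0 to 2 leaving out 1 array), and from 0 to 72 h from 1 to 2 without dim genes, 3 with quantile normalization and 2 with array weights (1 to 3). Those from 4 to 24 h went from 1 to 0 with only the groups compared (0 to 2), and from 24 to 72 h from 4 to 7 with only the groups compared and 2 with robust eBayes or no trend (2 to 4). The causes were not tested.

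Reversed signs were all among differences not called. With quantile normalization Egr3 at 0 h was -0.028 and Egr2 at 24 h 0.044, and array weights gave Egr2 at 24 h 0.037. Arrays 1 and 2 alone gave Egr2 0.0046 and Jun -0.10 at 4 h, Nr4a2 -0.053 and Fos -0.032 at 24 h, and Fos -0.024 at 72 h. With array 2 standing alone for KO at 4 h, Egr2 was 0.081 and Junb 0.17. Leaving out 1 array, KO and WT differences ran at 0 h from -0.053 to 0.072 for Egr3, -0.16 to 4.4e-05 for Nr4a3, -0.27 to 0.16 for Fos and -0.94 to 0.0074 for Fosb. At 4 h they ran from -0.072 to 0.030 for Egr2, -0.10 to 0.0041 for Nr4a1, -0.050 to 0.34 for Jun and -0.21 to 0.065 for Junb. At 24 h they ran from -0.13 to 0.041 for Egr2, -0.038 to 0.11 for Nr4a2, -0.011 to 0.15 for Fos and -0.025 to 0.35 for Fosb, and at 72 h from -0.049 to 0.071 for Fos. Egr1 in WT at 72 against 0 h ran from -0.26 to 0.10. With quantile normalization Egr2 in WT at 72 against 0 h was 0.19 (adjusted p = 0.13) in place of 0.43, and Egr1 in WT at 24 against 0 h 0.31 in place of 0.47.

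For each gene, an array's deviation from its group mean was taken. Over all genes, these deviations correlated at 0.0321 to 0.172 between same-numbered KO and WT arrays of the same time, with 6 of 12 over 0.1. The labels do not say what a number marks, and the main fit did not pair arrays by number. With the replicate number as a block, 1 of 147 member results changed its call, Egr1 in KO at 72 against 0 h (0.30, adjusted p = 0.039). By these deviations, arrays correlated best with their own number in 24 of 24 comparisons of KO with WT. Between times it was 33 of 36 within KO and 27 of 36 within WT. Each pair is counted from both sides and deviations within a group depend on each other, so the comparisons are not independent. They are a hint from the data. Without detection calls, dim genes cannot be told from background.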
